A study of Rattus norvegicus with 9 samples.

Results

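The 10 genes Clec7a, Lilrb4, Pilra, Fcer1g, Fcgr1a, Fcgr2a, Fcgr2b, Tyrobp, Trem2, and Syk code for receptors of myeloid cells, their signaling adaptors, and the kinase behind them, and they are described here in the infarcted hemisphere of the rat brain. They are 10 of the 19293 gene symbols on the array, and every non-control probe with one of these names was taken. That gave 15 probes, all of which were bright enough to be tested, and a gene is represented by its brightest probe over the 9 arrays. The genes were chosen by their measured values, because Clec7a, Lilrb4, and Pilra were among the genes that changed most in the comparisons of I/R with Sham and of DHI with I/R. Their differences in these comparisons are therefore a description, and no p-value is given for them. In DHI versus Sham the fitted adjusted p-values are given, although this comparison uses arrays of the other comparisons.

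Male Sprague-Dawley rats on normal chow fell into 3 groups of 3, and each rat gave 1 one-color Agilent SurePrint G3 Rat array of brain RNA at day 14. The Sham group had the operation without occlusion and received solvent by tail vein. In the I/R group the middle cerebral artery was blocked by a nylon suture for 2 h and then reperfused. The DHI group had the same occlusion and reperfusion, followed by daily tail vein injection of Danhong injection for 14 days, a preparation of the herbs Salvia miltiorrhiza and Carthamus tinctorius. The age of the rats was not given in the sources used here, nor was any injection of the I/R group. Slide 1 held the Sham and I/R arrays and slide 2 those of DHI, so that slide and Danhong treatment cannot be told apart. The 75th percentile of the signal, against which every value below is set, was 2570 to 2745 intensity units on Sham arrays, 2629 to 3464 on those of I/R, and 1816 to 2785 on those of DHI. On an array, 75.2% to 78.9% of the 30367 probes exceeded the scanner's background limit (well above background), and 0 were saturated. All 8 neuronal markers, among them Snap25 and Rbfox3, were well above background on each array of this tissue, which is labelled brain.

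Receptors of this kind read their surroundings through short tyrosine motifs. An activating receptor, or the adaptor it sits on, carries an ITAM, which is phosphorylated by Src family kinases when the receptor is bound and then recruits the kinase Syk. An inhibitory receptor carries an ITIM, which recruits phosphatases that oppose the same signal. In the brain these genes are known mainly from microglia and macrophages, the phagocytes that clear debris.

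To show where the 3 genes that led to this selection begin, the 250 bases before their annotated start are printed 5′ to 3′ on the strand of the gene, from RefSeq (build GRCr8). Capitals mark a match on either strand to GAGGAA, the core of the motif of PU.1, a transcription factor of myeloid cells, or to GGAA and GAAA with any 2 bases between them, a motif shared by PU.1 and interferon regulatory factors. Clec7a lies at chr4:164599828-164600077, Lilrb4 at chr1:78853253-78853502, both on the minus strand, and Pilra at chr12:23452447-23452696 on the plus strand.
Clec7a: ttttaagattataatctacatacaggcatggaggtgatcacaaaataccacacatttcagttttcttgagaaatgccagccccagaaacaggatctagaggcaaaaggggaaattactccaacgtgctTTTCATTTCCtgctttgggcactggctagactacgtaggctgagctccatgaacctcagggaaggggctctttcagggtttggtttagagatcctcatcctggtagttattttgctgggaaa
Lilrb4: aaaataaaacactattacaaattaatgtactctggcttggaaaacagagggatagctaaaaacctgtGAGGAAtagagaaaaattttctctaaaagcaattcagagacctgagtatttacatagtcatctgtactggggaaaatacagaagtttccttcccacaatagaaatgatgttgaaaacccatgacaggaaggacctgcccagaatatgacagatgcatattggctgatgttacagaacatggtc
Pilra: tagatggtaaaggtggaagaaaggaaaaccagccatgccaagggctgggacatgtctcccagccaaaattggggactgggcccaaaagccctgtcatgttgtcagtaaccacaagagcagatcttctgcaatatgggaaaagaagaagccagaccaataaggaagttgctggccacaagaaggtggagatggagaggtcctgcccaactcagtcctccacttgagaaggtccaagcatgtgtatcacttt
The match in Clec7a is to the composite motif, 122 to 113 bases before the start and on the opposite strand, and that in Lilrb4 is to the core, 183 to 178 bases before the start. The window of Pilra held neither. Of the 33469 windows of this length in the RefSeq table, 23.3% held the core and 2.48% the composite motif. The table had 7 windows for 6 of the 10 genes (Clec7a, Lilrb4, Pilra, Trem2, Syk, and 2 starts of Fcgr2a). The core was in 4 of the 7, those of Lilrb4, Trem2, Syk, and 1 start of Fcgr2a. The longer PU.1 motif GAGGAAGT (2.04% of all windows) was in 0 of the 7, and TGANTCA, the AP-1 motif (6.34%), was in 1, the other start of Fcgr2a. A match of letters is no evidence of binding. Clec7a was read by a probe at chr4:166725168-166725227, Lilrb4 by a probe at chr1:69167462-69167521, and Pilra by a probe at chr12:19995805-19995864, in the rn4 coordinates of the array, for which no exon annotation was used. The probe of Pilra carries an accession that is not in the RefSeq gene table, and its name is that of the array.

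The I/R arrays were higher than the Sham arrays for all 10 genes, with no overlap between them on any gene. The median difference over the 10 genes was 4.26 on the log2 scale, from 2.35 for Fcgr2a to 8.12 for Clec7a, whereas the median over all 23747 probes tested was -0.10. With Clec7a and Lilrb4 at the lower bounds given below, the median of the 10 genes is the same. At the study's thresholds (FC over 1.5 and unadjusted p under 0.05, here with limma), 10 of 10 were called higher, as were 20.8% of all probes tested. Arrays did not overlap and I/R was higher for 10 of 10 genes and for 26.7% of all probes. Since the genes were selected for their changes on these arrays, nothing is read from these counts. In bulk tissue a change in the number of cells of a type and a change in the RNA of each cell cannot be told apart. Every value below is a log2 signal from which the 75th percentile of its array was subtracted, and a probe's value is not comparable with that of another probe.

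The activating receptors were Clec7a, Fcgr1a, Fcgr2a, and Trem2. Clec7a (Dectin-1) is a C-type lectin that binds β-glucans and signals through Syk. Its values were -9.80, -10.02, and -9.69 on Sham 1 to Sham 3, -1.0, -1.42, and -2.74 on I/R 1 to I/R 3, and -2.04, -9.27, and -8.65 on DHI 1 to DHI 3. It was not well above background on any Sham array and was so on 3 of 3 I/R arrays but only on 1 of 3 DHI arrays, DHI 1. Taken against the lowest signal that counts as above background, Clec7a was at least 138-fold higher in I/R than in Sham. The fitted difference of 8.12 (SE 1.68) depends on a level that was not measured, and was 3.74 with normexp background correction.

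Fcgr1a is the high-affinity receptor for IgG. It read -1.41, -1.76, and -1.55 in Sham, 3.22, 2.83, and 1.60 in I/R, and 1.89, -1.55, and -0.68 in DHI. The I/R mean was 17.4-fold above the Sham mean (log2 4.12, SE 0.82), and all 3 I/R arrays lay above all Sham arrays. The other probe of the gene gave a difference of 3.87.

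Fcgr2a is a low-affinity receptor for IgG, and RefSeq lists Fcgr3 and Fcgr3a as older names of the rat gene. It read 1.63, 1.11, and 1.01 in Sham, 4.02, 3.86, and 2.93 in I/R, and 3.46, 1.56, and 1.73 in DHI. This was the smallest difference of the 10 genes, 5.11-fold (log2 2.35, SE 0.53). A probe that the array names Fcgr3a, which may read the same gene, gave 4.79 (SE 0.94) and is not counted among the 10. Genes of IgG receptors resemble each other in sequence, and probes of Fcgr2a, Fcgr2b, and their relatives may bind each other's RNA.

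Trem2 is a receptor for lipids and lipoproteins that microglia use in the uptake of debris. It read 1.26, 0.78, and 0.47 in Sham, 5.71, 5.52, and 4.10 in I/R, and 4.80, 0.95, and 1.76 in DHI. The I/R mean was 19.3-fold above the Sham mean (log2 4.27, SE 0.93), and DHI 1 lay among the I/R arrays.

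The adaptors that carry the ITAM for Fcgr1a, Fcgr2a, and Trem2 differed between I/R and Sham by nearly the same amount. Fcer1g, the common γ chain of Fc receptors, read 0.69, 0.50, and 0.41 in Sham, 5.13, 4.96, and 3.73 in I/R, and 4.19, 0.51, and 1.36 in DHI. Tyrobp (DAP12), the partner of Trem2, read 1.57, 1.44, and 1.22 in Sham, 6.25, 5.98, and 4.76 in I/R, and 5.46, 1.65, and 2.42 in DHI. For both genes the Sham arrays were tightly grouped, and I/R 3 was the lowest of the I/R arrays. The difference between I/R and Sham was 16.8-fold for Fcer1g (log2 4.07, SE 0.86) and 19.1-fold for Tyrobp (log2 4.25, SE 0.89). The other probe of Fcer1g gave 4.13.

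Syk, the kinase that docks on phosphorylated ITAMs, read -4.63, -4.91, and -5.13 in Sham, -0.61, -0.76, and -2.04 in I/R, and -1.62, -4.33, and -4.28 in DHI. The difference between I/R and Sham was 13.5-fold (log2 3.75, SE 0.73) for this probe. The other probes of Syk gave 3.60 and 1.64, so that they had the same direction and the smaller was less than that of any represented gene. The probe with 3.60 was not well above background on any Sham array.

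The inhibitory receptors were Lilrb4, Pilra, and Fcgr2b. Lilrb4 is an immunoglobulin-like receptor with ITIMs. It read -8.67, -9.59, and -9.90 in Sham, -1.06, -0.53, and -2.53 in I/R, and -0.89, -7.67, and -8.55 in DHI. It was not well above background on any Sham array, and passed that limit on 3 of 3 arrays of I/R and 2 of 3 of DHI. Lilrb4 was at least 172-fold higher in I/R than in Sham, with a fitted difference of 8.01 (SE 1.78), which was 3.84 with normexp correction.

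Pilra is the inhibitory member of a pair of immunoglobulin-like receptors. It read -6.31, -8.02, and -8.26 in Sham, -2.05, -2.76, and -3.28 in I/R, and -4.37, -7.73, and -6.29 in DHI. It was well above background on 1 of 3 Sham, 3 of 3 I/R, and 2 of 3 DHI arrays. The fitted difference between I/R and Sham was 4.83 (SE 0.86), and 2.50 with normexp correction.

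Fcgr2b is the inhibitory receptor for IgG, whose ITIM recruits a lipid phosphatase. It read -2.95, -3.19, and -2.99 in Sham, 2.58, 2.15, and 1.20 in I/R, and 1.80, -2.89, and -1.90 in DHI. The I/R mean was 32.5-fold above the Sham mean (log2 5.02, SE 1.06), and the other probe gave 4.01. The probe stood on each array in 10 spots, of which 8 to 10 were used. The SD between the spots of an array was at most 0.08, whereas that between the 3 rats of a group was 0.13 for Sham, 0.71 for I/R, and 2.47 for DHI. Other genes had fewer spots, and Pilra and Trem2 rested on 1 spot per array. The 2 spots of Lilrb4 had an SD of 1.36 on DHI 2 and 1.08 on DHI 3, but 0.06 to 0.16 on the I/R arrays.

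**Figure D1:**
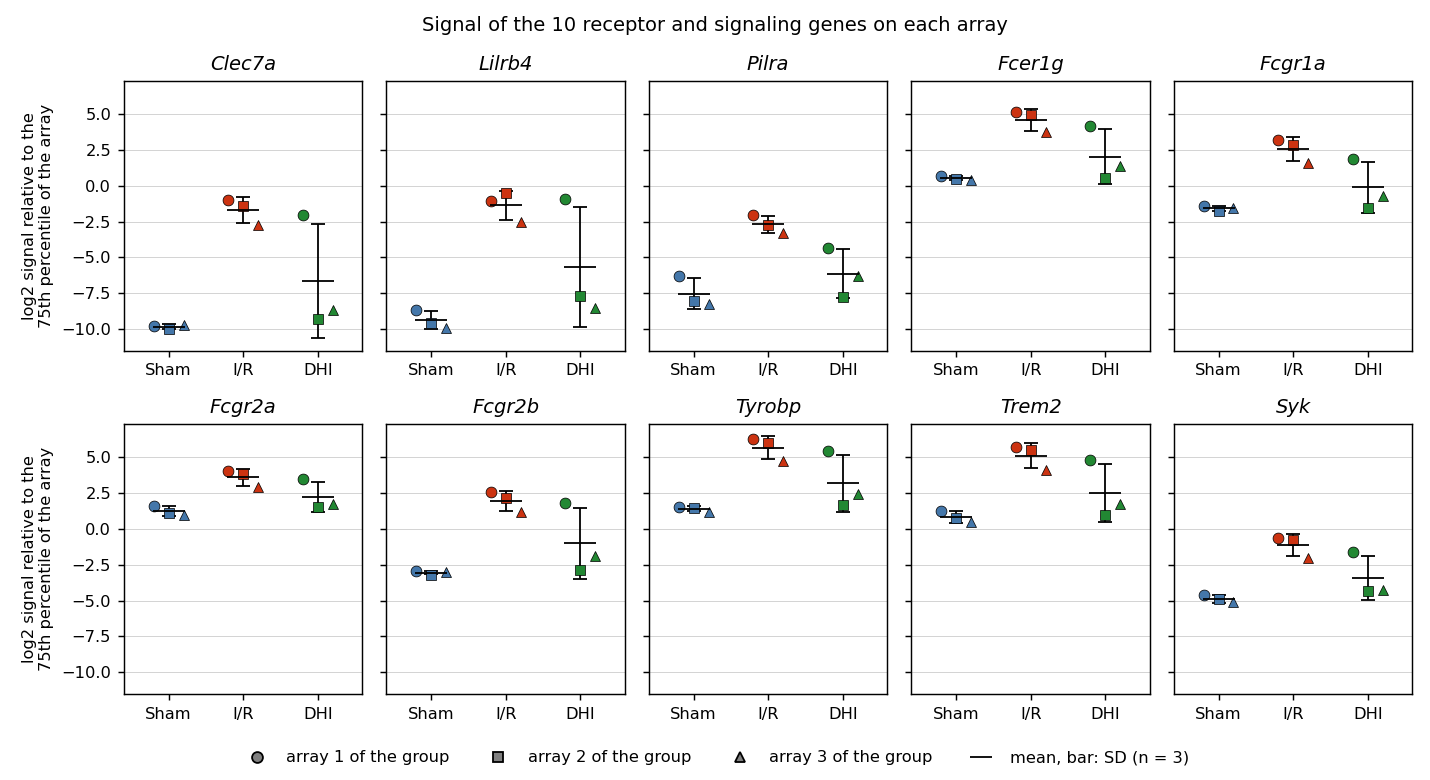
Log2 signal above or below each array's 75th percentile (y axis) for each of the 10 genes on the 3 Sham, 3 I/R, and 3 DHI arrays, with 1 symbol per array, the mean as a line, and the SD as a bar (n = 3). The I/R arrays lie above all Sham arrays in every panel, and DHI 1 lies far above DHI 2 and DHI 3. The Sham points of Clec7a and Lilrb4 were not well above background.

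The SD between rats had a median over the 10 genes of 0.21 for Sham, 0.79 for I/R, and 1.97 for DHI, although for Pilra it was higher in Sham (1.06) than in I/R (0.62). The fit takes a common spread for all groups, so that a gene has the same SE in each comparison. The SEs printed here therefore do not show how the spread differed between groups. I/R 3 was the lowest I/R array for 10 of 10 genes. DHI 1 was the highest DHI array for 10 of 10, and it stood 1.82 (Fcgr2a) to 7.22 (Lilrb4) above the mean of the other DHI arrays by measured values. Clec7a and Lilrb4 were not above background on every DHI array, so that the upper end of this range rests on levels near background. DHI 2 was the lowest for 9 of 10, the exception being Lilrb4, for which DHI 3 was lowest.

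Each DHI array was therefore placed between the Sham mean (0) and the I/R mean (1) of each gene, as a description. DHI 1 lay at 0.65 (Pilra) to 1.06 (Lilrb4), with a median of 0.93 over the 10 genes. It was inside the range of the I/R arrays for 9 of 10 genes and below it for Pilra. DHI 2 lay at -0.04 to 0.21, with a median of 0.04, and was inside the Sham range for 5 of 10 genes and above it for the other 5. DHI 3 lay at 0.10 to 0.26, with a median of 0.21, above all Sham arrays and below all I/R arrays for 10 of 10 genes. The 75th percentile was 2785 intensity units on DHI 1, 1816 on DHI 2, and 2120 on DHI 3, and the part of this in the split was not tested. With no scaling between the arrays, all 10 genes were still called higher in I/R versus Sham and lower in DHI versus I/R, where 29.8% of all probes were then called lower and 1.5% higher.

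**Figure D2:**
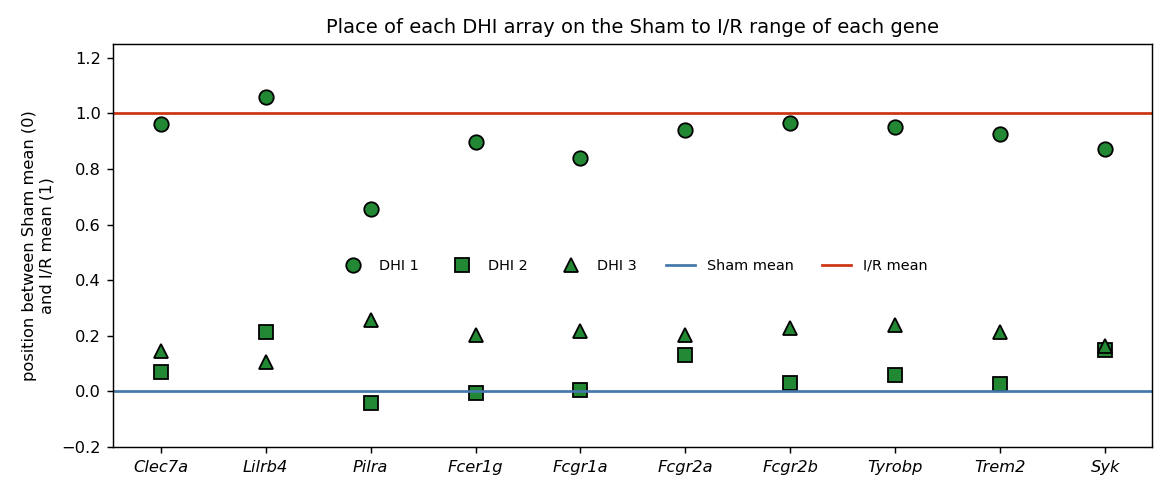
Place of each DHI array for each of the 10 genes on a scale where 0 is the Sham mean and 1 the I/R mean (y axis). DHI 1 lies between 0.65 and 1.06, while DHI 2 and DHI 3 lie between -0.04 and 0.26.

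In DHI versus I/R, all 10 fitted differences were below 0, with a median of -2.64, relative to 0.10 over all probes tested. They ran from -1.35 (SE 0.53) for Fcgr2a to -4.93 (SE 1.68) for Clec7a, which was above background on only 1 of 3 DHI arrays. With normexp correction Fcgr2b had the widest difference, -2.80. Lilrb4 had -4.33 (SE 1.78), Pilra -3.43 (SE 0.86), and Fcgr2b -2.97 (SE 1.06). For Fcgr1a, Trem2, Fcer1g, Tyrobp, and Syk the differences were between -2.66 and -2.27. At the study's thresholds 10 of 10 were called lower, as were 10.5% of all probes tested, and this too restates the selection. With adjusted p-values 0 of the 10 were called. The arrays of DHI and I/R did not overlap for 1 of 10 genes, Pilra, compared with 4.03% of all probes, since DHI 1 reached into the I/R range for the other 9.

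The calls in DHI versus I/R rested on single arrays. They numbered 2 of 10 without DHI 2, 2 without DHI 3, 3 without I/R 1, and 5 without I/R 2, but 10 without DHI 1. Calls of all probes as lower moved with the same arrays, from 10.5% to 1.8%, 2.13%, 2.08%, and 2.87%, and to 19.1% without DHI 1. With DHI 1 left out, the median difference was -3.71 in place of -2.64, and with DHI 2 left out it was -1.89. The methods' t-test called 1 of 10. With normexp correction the differences of the dim genes were smaller, -2.14 for Clec7a, -1.95 for Lilrb4, and -1.68 for Pilra, and Lilrb4 was then not called.

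In DHI versus Sham, the fitted differences were above 0 for 10 of 10 genes, with a median of 1.57, relative to 0.02 over all probes tested. With limma 0 of the 10 had an unadjusted p under 0.05 and so 0 passed the study's thresholds, where 2.52% of all probes were called higher, and the methods' t-test also called 0. The limma adjusted p was 0.709 for each of the 10 genes, the smallest that any probe had. The differences ran from 1.00 (SE 0.53) for Fcgr2a to 3.68 (SE 1.78) for Lilrb4. Clec7a and Lilrb4 were not above background on any Sham array and were so on 1 and 2 of 3 DHI arrays, and their differences were 1.60 and 1.89 with normexp correction.

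For 5 of 10 genes the ranges of DHI and Sham were separate, Clec7a, Lilrb4, Fcgr2b, Tyrobp, and Syk, compared with 10.3% of all probes (DHI higher). Single arrays decided the size of these differences. Without DHI 1 the median was 0.55, with a range of 0.40 to 1.28, and 0 of 10 were called. Without DHI 2 the median was 2.34 and 10 of 10 were called, and without DHI 3 2 were called, Lilrb4 and Syk, while 7.74% and 2.13% of all probes were called higher. With adjusted p-values in place of unadjusted ones, 16.4% of all probes were called higher in I/R versus Sham, 0.00421% lower in DHI versus I/R, and 0% higher in DHI versus Sham.

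**Figure D3:**
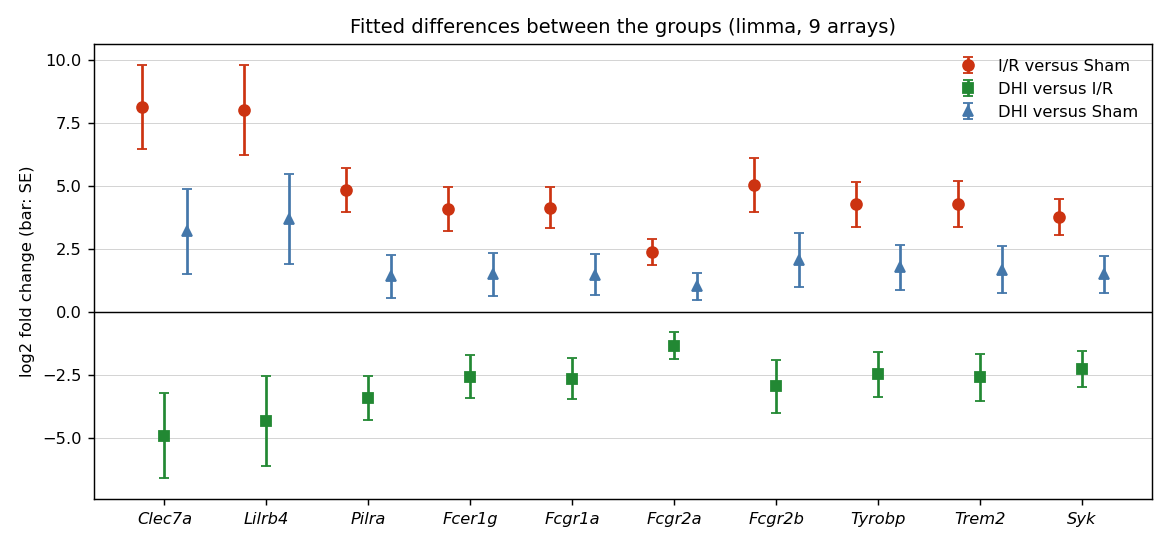
Fitted log2 fold changes (y axis) of each of the 10 genes for the 3 pairs of groups. Bars show the SE of the limma fit over 9 arrays, which is the same for a gene in each pair. Differences are above 0 in I/R versus Sham, between -4.93 and -1.35 in DHI versus I/R, and between 1.00 and 3.68 in DHI versus Sham.

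The rest of the signaling system moved in the same direction, in part. Of 109 other genes listed by role, 20 had no probe of their name and 10 were too dim to be tested. In I/R versus Sham, 60 of the 79 tested were called higher and 3 lower, with a median difference of 2.72, relative to 20.8% and 22.3% of all probes called higher and lower and a median of -0.10. In DHI versus I/R, 45 of 79 were called lower and 0 higher, relative to 10.5% and 11.5% of all probes, with a median of -1.81, and with adjusted p-values 0 were called. In DHI versus Sham, 2 of 79 were called higher, Apoa1 and Fyb, near the 2.52% of all probes, with a median of 0.86. With no scaling these were not called, and Treml2 and Cd200 were called lower instead. These lists were written with results of these arrays known and are not independent evidence of a direction. The 45 calls in DHI versus I/R became 7 without DHI 2, 8 without DHI 3, 10 without I/R 1, and 12 without I/R 2. The 2 calls in DHI versus Sham became 30 without DHI 2, 8 without DHI 3, and 0 without Sham 2 or Sham 3.

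Of 12 tested genes listed as other activating receptors and adaptors, 10 were called higher in I/R versus Sham and 7 lower in DHI versus I/R. The widest differences were in Trem1, an amplifier of inflammatory signals that pairs with Tyrobp, and in Clec4a2. Clec4a1 and Clec4a3, relatives of Clec4a2, are in the inhibitory list below, so that its place among activating receptors is uncertain. Neither Trem1 nor Clec4a2 was well above background on a Sham array, and in I/R Trem1 was at least 38.6-fold and Clec4a2 at least 51.0-fold higher. The probe named Fcgr3a was higher by 4.79. Since RefSeq gives this as an older name of Fcgr2a, it may not stand for another receptor. Hcst (DAP10), an adaptor whose place in this list is no evidence of an ITAM, was higher by 4.78. The smallest difference was that of Oscar, -0.05 (SE 0.16).

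Of 14 tested genes listed as other inhibitory receptors, 11 were called higher in I/R versus Sham and 9 lower in DHI versus I/R. Whether each listed gene carries an ITIM was not checked. The widest difference was in Siglec1, a sialic acid receptor of macrophages, whose place in this list is no evidence of an ITIM. It was higher by 7.44 (SE 1.73) and read 0.89, -6.60, and -5.55 on DHI 1 to DHI 3. Cd72 was at least 43.5-fold higher in I/R and was not above background in Sham. Sirpa, the receptor for the signal Cd47, differed by 0.26 (SE 0.16) and was not called.

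Among the kinases, adaptors, and enzymes that act with or after Syk, 20 of 28 tested passed as higher and 1 as lower in I/R versus Sham. Lat2, a membrane adaptor, was higher by 5.04 (SE 0.99), and Vav1, an exchange factor for Rac, by 4.94 (SE 1.04). Src kinases went different ways, with Fgr higher by 3.97 and Lyn by 3.33, Src lower by 1.35 on the log2 scale, and Fyn at -0.06 (SE 0.16). Btk (3.82), Plcg2 (2.72), and Card9 (3.83), which carry the signal of Syk onward, were called higher, whereas Plcg1 was at -0.07 and Zap70, the relative of Syk in T cells, at -0.15. In DHI versus I/R, 19 of 28 were called lower.

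Phosphatases and other negative regulators were higher too, 11 of 13 tested. Ptprc (CD45) was higher by 4.68 (SE 1.02), and its place in this list is no evidence that it opposes the signal. It is also counted among the markers of microglia and macrophages below. Ptpn6 (SHP-1), a phosphatase recruited by ITIMs, was higher by 4.33 (SE 0.90), while Ptpn11 (SHP-2) was at -0.37 and Cblb at 0.22, neither called. Inpp5d (SHIP-1), recruited by Fcgr2b, was higher by 1.24. In DHI versus I/R, 7 of the 13 were called lower.

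Ligands were the most mixed group, with 8 of 12 tested called higher in I/R versus Sham and 2 called lower. Anxa1 was higher by 4.18 (SE 1.06), Vim by 3.62 (SE 0.90), which have both been described as ligands of Clec7a, and Apoe, a lipoprotein ligand of Trem2, by 0.70. Cd200, a neuronal ligand that restrains myeloid cells, was lower by 0.98 on the log2 scale, and Npdc1, a ligand of Pilra, was lower by 0.84. Apoa1 had the smallest difference, 0.29 (SE 0.37).

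**Figure D4:**
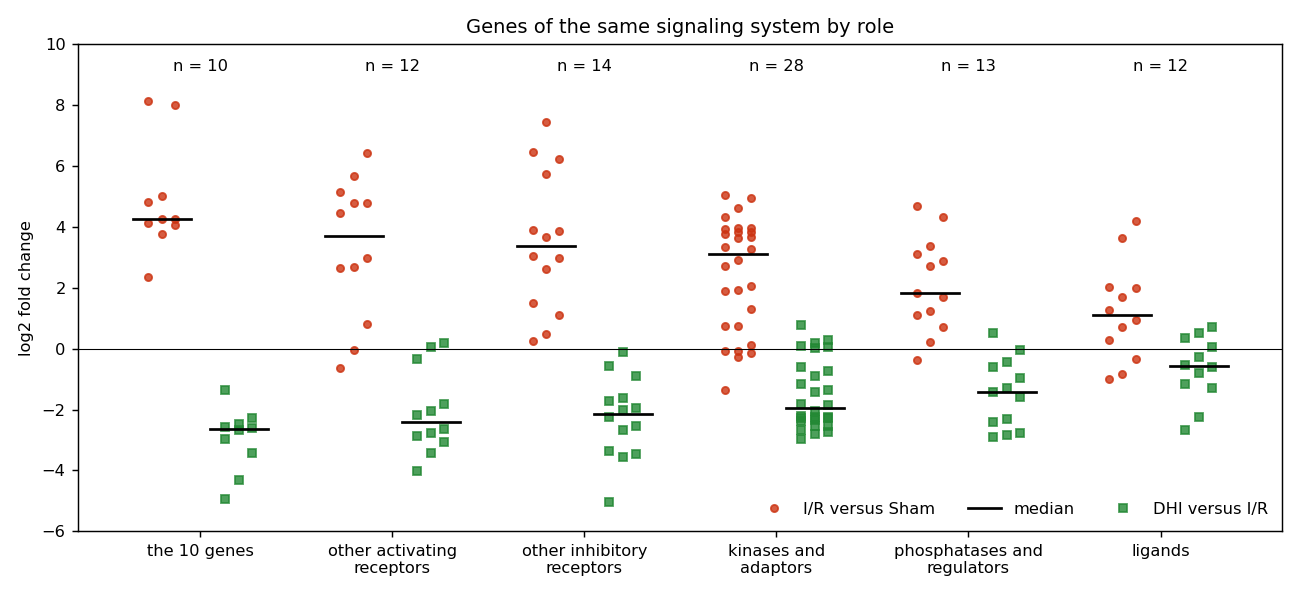
Fitted log2 fold changes (y axis) of the 10 genes and of the tested genes of 5 lists by role, with 1 point per gene for I/R versus Sham and for DHI versus I/R, and the median as a line. Medians in I/R versus Sham are 3.70, 3.35, 3.09, 1.84, and 1.1 in the 5 lists, and those in DHI versus I/R are all below 0.

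Over the 9 arrays, each of the 10 genes correlated with the mean profile of the other 9 at a Pearson's r of 0.958 (Pilra) to 0.998 (Tyrobp). Of 15574 other gene symbols, those closest to the mean profile of the 10 genes were C1qb (r 0.9994), Cyba, Clec4a2, and Vav1 (each 0.9989), and Mx1 (0.9987). C1qb is a chain of the complement component C1q, and Cyba a subunit of the phagocyte oxidase. The r values describe 9 arrays that share the contrast of I/R with Sham.

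Markers of cell types were read on the same arrays. In I/R versus Sham, 20.8% of all probes tested were called higher and 22.3% lower. Marker counts near these shares are not read as a result about a cell type. Of 11 measured markers of microglia and macrophages, 10 were called higher in I/R versus Sham, with a median of 3.40, and all 11 were well above background on each array. Cd68 was higher by 6.69, Spi1 (the gene of PU.1) by 3.95, P2ry12 by 2.38, and Tmem119 by 2.36, while Cx3cr1 was at -1.0 and not called. Their summed signal, in units of the 75th percentile of the array, ran from 16.0 to 18.1 for Sham, 63.6 to 168 for I/R, and 20.2 to 92.7 for DHI. That of the 10 genes was, in the same order, 7.55 to 10.6, 71.1 to 197, and 9.98 to 109. Both were highest on DHI 1 among the DHI arrays.

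Of 7 T cell markers tested, 5 were called higher in I/R versus Sham. Cd8a was at least 131-fold higher in I/R and below the background limit on 3 of 3 Sham arrays. Cd4 was higher by 3.29, Cd3g by 2.71, Cd8b by 2.32, and Cd3d by 0.59, just past the threshold. Cd3e at 1.15 (SE 1.21) and Lck at -0.03 (SE 0.20) were not called, and Cd2 was too dim to be tested. The summed signal of the T cell markers was 0.22 to 0.25 in Sham, 0.67 to 1.23 in I/R, and 0.23 to 0.93 in DHI. Cd8a was the brightest of them on I/R 1 and I/R 2, and Cd3d on I/R 3. Whether each marker, Cd4 and Cd8a included, is particular to T cells in this tissue was not checked. Of 5 neutrophil markers tested, 4 were called higher, while Elane, Ngp, and Cxcr2 were too dim to be tested. Mpo, at -0.31, was not called. The signals of the neutrophil markers summed to 0.09 to 0.12 in Sham, 0.22 to 0.91 in I/R, and 0.16 to 0.43 in DHI. Lcn2, higher by 3.34, was the brightest of them on each I/R array and so weighs most in the sum there. Of 4 NK cell markers tested, 3 were called higher and 1 lower, with Ncr1 and Klrd1 too dim. The NK cell sum lay at 0.33 to 0.46 for Sham, 0.36 to 0.38 for I/R, and 0.38 to 0.45 for DHI. Klrk1, the marker called lower (-0.59), was the brightest on each array, so that this sum mostly follows Klrk1. Of 3 B cell and plasma cell markers and 4 mast cell markers tested, 0 were called, with Ms4a1, Cd79b, Mzb1, and Cma1 too dim to be tested.

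All 8 neuronal markers were called lower in I/R versus Sham, with a median of -2.66 and a summed signal of 71.2 to 78.3 in Sham, 6.96 to 35.8 in I/R, and 24.0 to 75.4 in DHI. On DHI 1 the neuronal sum was the lowest of the DHI arrays. Among astrocyte markers 4 of 7 were called higher and 1 lower, Gfap being higher by 3.63. Of 6 oligodendrocyte markers 0 were called. Of 6 endothelial markers 2 were called higher, Tek and Pecam1, the latter also listed above as an inhibitory receptor. All 4 red blood cell genes were called lower, but 0 with adjusted p-values. Their summed signal was 4.62 to 38.6 in Sham, 2.82 to 4.12 in I/R, and 9.37 to 49.97 in DHI. The part of any of these cell types in the differences of the 10 genes was not tested.

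**Figure D5:**
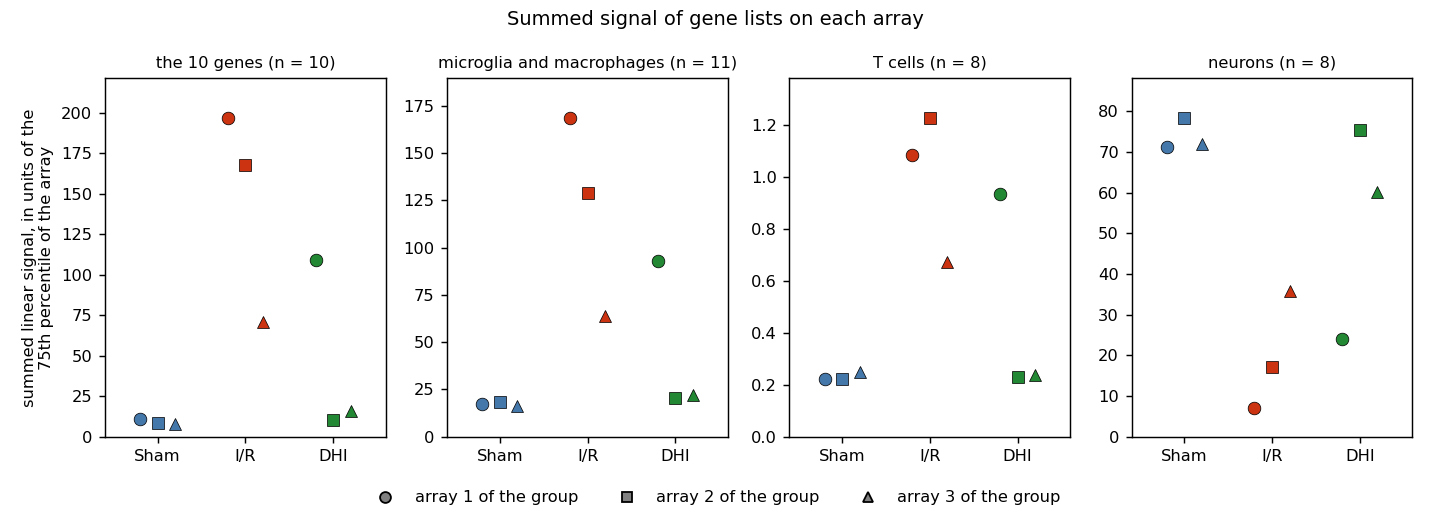
Summed linear signal (y axis, in units of the 75th percentile of the array, from 0) of the 10 genes and of the markers of microglia and macrophages, T cells, and neurons on each array. The sum of the 10 genes and that of microglia and macrophages are highest on I/R 1, and on DHI 1 among the DHI arrays, where the neuronal sum is lowest.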

How the data were processed

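Brain RNA of 9 rats (3 Sham, 3 I/R, and 3 DHI, grouped by the labels) was measured on one-color Agilent arrays. The authors deposited each array's spot intensity on a linear scale, corrected for background by Agilent Feature Extraction 10.7.1.1 and not scaled between arrays. The authors deposited as well a table of log2 values for the whole series, whose distribution is the same on every array and whose normalization their text does not name, and it was used as an alternative only.

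From the intensities, control spots and the 392 to 725 outlier spots per array were left out. The log2 signal was averaged over the spots of a probe, and the 75th percentile of the array was subtracted. A probe entered the test if 1 or more groups had it well above background on 3 of 3 arrays (23747 of 30367). One model was fitted over the 9 arrays with limma 3.58.1 in R 4.3.3 (lmFit and eBayes, 6 residual degrees of freedom), and p-values were adjusted over all probes tested (Benjamini-Hochberg). The study's thresholds were FC over 1.5 with unadjusted p under 0.05. A group in which a probe was not above background was given the lowest signal that counts as above background on each array, or the probe's own if higher, and the fold is then written as "at least". The fit was also run on simulated data, but no setting or result of that run is given here. Nothing about the unequal spread of the groups is read from it.

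The 10 genes, the role lists, and the marker lists were chosen with earlier results of these data known. Of each role list, the pair of tested genes with the largest and the gene with the smallest difference between I/R and Sham were to be named, as were the 5 genes with the closest profile. Further list genes were named for their known role after their values were seen. Labels gave no other batch, and 3 arrays per group limit the precision. Numbers of replicates did not pair the rats: deviations of same-numbered arrays from their group means correlated at -0.341 to 0.476. Alternatives were other normalizations, filters, fits, and the methods' t-test. The columns of per-sample values left out numbered 0.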

Additional observations from a re-analysis of the deposited data

How the results depend on the processing

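Direction was kept by all 10 genes in all 3 comparisons under every alternative that gave a value, and 0 of their differences reversed. In I/R versus Sham, 10 of 10 genes were called under each alternative, except that probes well above background on all 9 arrays left 7 genes, of which 7 were called. Leaving out an array gave 10 to 10 genes, and 57 to 64 of the genes listed by role in place of 63. These counts used unadjusted p, except that of the adjusted p alternative. Calls with adjusted p were less stable under some alternatives. Over all probes, 7471 were called with adjusted p in the main fit, but 1 with no scaling. The limma adjusted p of each of the 10 genes was then 0.052. Dropping any Sham array left 0 or 1, as did dropping DHI 3 and, in separate fits, I/R 1 and I/R 2. With DHI 1, DHI 2, or I/R 3 dropped, 7996 to 10266 were called. In DHI versus I/R, the 10 calls became 0 with adjusted p, 1 with the methods' t-test, and 6 with only the 2 groups compared, and 2 to 10 when an array was left out. Lower calls over all probes fell from 10.5% to 0.00421% with adjusted p, 0.737% with the t-test, and 4.65% with only the 2 groups. The 45 listed genes became 0 with adjusted p, 0 with the t-test, and 29 with only the 2 groups, and 7 to 61 when an array was left out. In DHI versus Sham, the 0 calls among the 10 genes became 9 with array weights and 2 with normexp correction, and 0 to 10 when an array was left out. Higher calls over all probes rose as well, from 2.52% to 11.5% with array weights and 5.25% with normexp. They were 0.964% to 7.74% when an array was left out. The 2 listed genes became 24 with array weights, 15 with normexp, 4 with no filter on dim probes, 0 with adjusted p or the t-test, and 1 with quantile normalization, with the authors' series table, or with only the 2 groups, and 0 to 30 when an array was left out. With no scaling between arrays the 2 calls were reversed, 2 lower (Treml2 and Cd200) in place of 2 higher. The cause of these shifts was not tested.

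With the replicate number as a block, although the numbers did not pair the rats, 4 of the 10 genes and 14 listed genes were called in DHI versus Sham. Of all probes, 3.75% were then called higher, relative to 2.52% without it. The block moved no count of the 10 or of the listed genes by over 1.5 times in the other comparisons. Clec7a, Lilrb4, and Pilra were close to background in Sham and on DHI 2 and DHI 3, which limits their fold changes. With no scaling between arrays, the median of all probes tested moved from -0.10 to 0.10 in I/R versus Sham, from 0.10 to -0.36 in DHI versus I/R, and from 0.02 to -0.25 in DHI versus Sham, while that of the 10 genes was 4.46, -3.10, and 1.31.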
